A study of Homo sapiens with 48 samples.

Results

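The transcripts of 37 genes that respond to hypoxia or carry out glycolysis were followed in 48 RNA sequencing libraries of the prostate cancer line 22Rv1 and its derivatives. The members are 15 glycolysis enzymes, 21 other targets of the hypoxia-inducible factors (HIFs) and HIF1A, which encodes a HIF subunit. They were taken by gene symbol from the 61815 genes of the count table, and each symbol was found. Of the 37, 35 passed the filter on low counts and were among the 20009 genes tested, so that all 15 glycolysis enzymes, 19 other HIF targets and HIF1A have a test. The remaining HIF targets were near 0 in every library: CA9, a cell surface carbonic anhydrase, reached at most 0.241 CPM (counts-per-million of the library, scaled by TMM), and SLC2A3, the neuronal-type glucose transporter, at most 0.196 CPM.

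HIFs are pairs of an oxygen-sensitive alpha subunit, such as HIF1A, and a stable partner. When oxygen is ample, prolyl hydroxylases of the EGLN family mark the alpha subunit for degradation, so that much of the regulation acts on the protein and not on its RNA. In low oxygen HIFs activate genes for glucose uptake, glycolysis, blood vessel growth, mitochondrial removal and collagen modification, and the hydroxylases EGLN1 and EGLN3 are themselves targets. Glycolysis turns glucose into pyruvate in the cytosol, and LDHA then makes lactate. CDK8 and its paralog CDK19 are kinases of Mediator, the complex that links transcription factors to RNA polymerase II, and CDK8 has been tied to the activity of HIF1A on its targets. No sample of this study was labelled as hypoxic.

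The parental line (Rv1-WT) and a derivative that expresses luciferase from a lentivirus (Rv1-Luc) were grown in medium with FBS, fetal bovine serum, or with CSS, serum stripped with charcoal so that androgens are depleted. Cells for CSS had been passaged in that medium first and were seeded at a higher density than those in FBS, so the serum and the density cannot be told apart. The other lines came from 22Rv1 cells in which CDK8 and CDK19 had both been knocked out, and were grown in FBS: dKO-8 re-expresses wild-type CDK8, dKO-19 wild-type CDK19, and dKO-8M and dKO-19M the kinase-dead mutant of each. Every line and medium was treated for 72 hours with 500 nM SNX631, an inhibitor of both kinases, or with 0.1% DMSO as vehicle, which gives 16 groups of 3 libraries. The CDK8 lines were made from cells that had first received an empty vector and the CDK19 lines were not, and each derivative is 1 transduced population, so a difference between lines is not that of the kinase alone. The methods of the study call the libraries of a condition biological replicates and do not say how their cultures were kept apart, so the tests measure the spread between these libraries.

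Library totals ran from 13231860 to 31496134 counts, with a median of 21405649. CDK8 transcripts stood at 26.8 CPM in Rv1-WT under vehicle in FBS, at 68.7 CPM in dKO-8 and at 123 CPM in dKO-8M, and CDK19 transcripts at 149 CPM in Rv1-WT, 510 CPM in dKO-19 and 332 CPM in dKO-19M. Knockout transcripts can still be counted, so these levels check the re-expressed kinase only. All 9 prostate luminal markers examined exceeded 1 CPM on average in the Rv1-WT, Rv1-Luc, dKO-8 and dKO-19 groups, and the summed markers of endothelial cells and of leukocytes stayed at or below 0.987 and 1.44 CPM. Summed fibroblast markers ran from 3.67 to 11.5 CPM, and 7 or 8 of 9 luminal markers averaged over 1 CPM in the groups of the kinase-dead lines. Of 6 plasma cell markers, SDC1, which epithelial cells express too, exceeded 1 CPM in every group. The other 5, which include the antibody chain genes IGHG1 and IGKC, summed to between 1.43 and 23.0 CPM in the 12 Rv1-Luc libraries and to at most 0.702 CPM in the 36 libraries of the other lines. IGHG1 averaged 6.19 CPM in Rv1-Luc in FBS under vehicle and 1.33 CPM with SNX631, and 0.477 and 5.32 CPM in CSS. The part of these markers in the results was not tested. In the Rv1-Luc cultures in FBS with SNX631, replicate 3 was the highest and replicate 2 the lowest library for each of the 19 other HIF targets tested, and the same held for 13 and 14 of the 15 glycolysis enzymes. In the Rv1-Luc vehicle group in FBS, replicate 1 was the highest for 13 of the 15 enzymes and for 12 of the 19 other targets. The calls, medians and counts of members in each comparison that rests on these groups were recomputed without each library, and the lists of genes that are no members were not. In bulk RNA a change in the number of cells of a type and a change in RNA per cell cannot be told apart. Changes are given as log2 fold changes with their standard errors from 1 edgeR quasi-likelihood fit of all 48 libraries. A change counted as called when it exceeded 1.5-fold with an FDR (false discovery rate, the p adjusted over all genes tested) under 0.01, and a wider rule, FDR under 0.05 with no limit on the fold, was read beside it.

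HIFs bind DNA at the core letters ACGTG or GCGTG. RefSeq promoter windows of GRCh38.p14, 300 bases long around the start of each gene, matched 34 of the 37 members by symbol, and VEGFA, BNIP3L and SLC2A3 were not matched. At least 1 of these cores on either strand stood in 25 of the 34 windows (73.5%), against 48.4% of the 35116 promoters in the table. The share was 66.7% (10 of 15) for the glycolysis enzymes and 77.8% (14 of 18) for the other HIF targets, and at least 2 matches stood in 40.0% and 27.8% of them, against 23.1% of all promoters. A palindromic CACGTG matches on both strands and counts as 2. Each core holds the letters CG, and the windows were not compared with promoters of like GC content. The windows below belong to 3 members with 5 or 6 matches whose RNA fell with CSS in both lines, LDHA, ALDOC and BNIP3, and to EGLN3, which has none and was also called lower with CSS under vehicle in both lines. They are written 5′ to 3′ on the strand of the gene, with the cores in capitals.
LDHA: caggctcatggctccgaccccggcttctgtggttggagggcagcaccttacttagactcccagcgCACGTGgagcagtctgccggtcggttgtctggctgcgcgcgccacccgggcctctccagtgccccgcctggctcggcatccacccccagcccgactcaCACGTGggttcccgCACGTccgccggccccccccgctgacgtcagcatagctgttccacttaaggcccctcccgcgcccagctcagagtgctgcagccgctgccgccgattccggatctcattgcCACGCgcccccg
ALDOC: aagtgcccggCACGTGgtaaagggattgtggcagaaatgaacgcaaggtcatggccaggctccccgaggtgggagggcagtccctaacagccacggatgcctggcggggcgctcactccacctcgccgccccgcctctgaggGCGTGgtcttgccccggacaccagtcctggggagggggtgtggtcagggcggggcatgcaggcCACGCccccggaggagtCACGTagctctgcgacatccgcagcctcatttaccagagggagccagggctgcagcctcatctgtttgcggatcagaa
BNIP3: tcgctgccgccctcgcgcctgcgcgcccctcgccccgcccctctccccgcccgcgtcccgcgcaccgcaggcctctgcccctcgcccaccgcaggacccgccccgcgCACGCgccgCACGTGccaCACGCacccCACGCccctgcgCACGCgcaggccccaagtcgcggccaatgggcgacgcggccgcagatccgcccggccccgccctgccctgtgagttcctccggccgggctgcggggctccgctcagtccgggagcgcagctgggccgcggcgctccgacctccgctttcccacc
EGLN3: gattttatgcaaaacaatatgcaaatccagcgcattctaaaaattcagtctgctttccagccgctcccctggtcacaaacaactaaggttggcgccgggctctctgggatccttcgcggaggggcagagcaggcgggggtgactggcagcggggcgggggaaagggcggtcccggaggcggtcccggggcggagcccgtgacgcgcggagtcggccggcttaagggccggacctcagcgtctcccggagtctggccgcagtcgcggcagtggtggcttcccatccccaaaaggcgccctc
The LDHA window is chr11:18394313-18394612 on the plus strand and holds 6 matches. The minus strand windows are chr17:28576846-28577145 for ALDOC with 5 matches, chr10:131981874-131982173 for BNIP3 with 6, and chr14:33951025-33951324 for EGLN3. PGAM1 and TPI1 have no match and also fell with CSS in both lines. Whether the number of matches goes with the size of the response was not tested. A match describes the letters in the window and was not tested for binding.

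Per length, the 8 most abundant members were glycolysis enzymes, and the other 7 enzymes lay below HIF1A. On the RPKM scale, CPM divided by the exon length of GENCODE 29 in kilobases, the median over all libraries was 1250 for GAPDH, 500 for TPI1, 190 for ENO1, 128 for ALDOA and 126 for LDHA. The muscle-type and liver-type phosphofructokinases PFKM (42.2 RPKM) and PFKL (23.5 RPKM) were above the platelet type PFKP (2.15 RPKM). Hexokinase 1 (HK1, 39.2 RPKM) was above hexokinase 2 (HK2, 23.5 RPKM), and ALDOC, the aldolase first known from brain, stood at 10.7 RPKM. Among the other targets P4HA1 (36.6 RPKM), FAM162A (35.8 RPKM) and BNIP3L (24.5 RPKM) were the highest, and PPFIA4, which encodes a liprin, the lowest at 0.174 RPKM. HIF1A itself stood at 50.2 RPKM. The deposited counts of some members were not whole numbers in most libraries, and these levels are less certain: PGK1 in 72.9% of libraries, ALDOA in 70.8%, GPI and EGLN1 in 68.8%, PFKP in 56.2%, PFKM in 54.2% and ENO1 in 52.1%.

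The comparison of CSS with FBS asks what changed in androgen-depleted medium. The largest count of members called in any comparison was here: in Rv1-WT under vehicle 20 of the 35 members tested were called lower with CSS and 0 higher, whereas 4.78% of all genes tested were called lower and 6.09% higher. The 20 were 10 of the 15 glycolysis enzymes and 10 of the 19 other HIF targets. The calls of ENO1, P4HA1 and SLC2A1 were each lost in 1 of 6 fits that each left out a library. These calls and that of AK4 were also lost with scaling by library size alone. The median log2 change was -0.73 for the enzymes and -0.60 for the other targets, against 0.01 for all genes. At FDR under 0.05, 14 of the 15 enzymes and 12 of the 19 other targets were lower (23.1% of all genes), and 2 other targets, VEGFA and MXI1, were higher (21.8%).

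**Figure D1:**
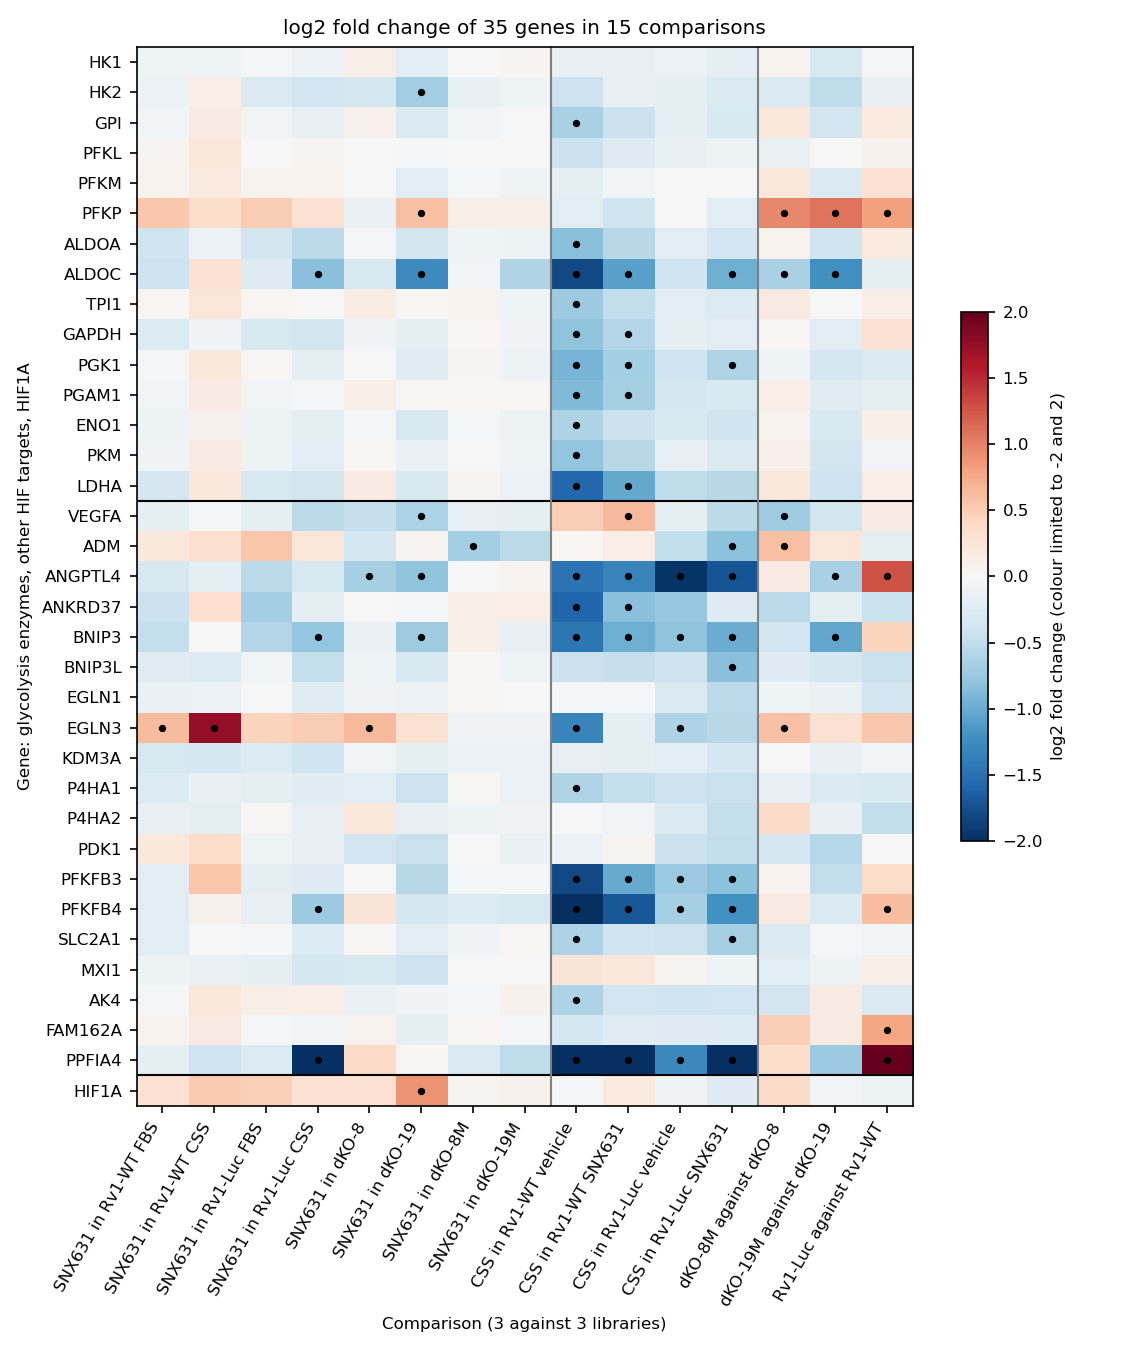
Heat map of the log2 fold change of the 35 members tested (rows: 15 glycolysis enzymes, 19 other HIF targets, HIF1A) in the 15 comparisons of 3 against 3 libraries (columns), with colour limited to -2 and 2 and a dot where a gene was called. The blue block with 20 dots is CSS in Rv1-WT under vehicle, and the columns of the kinase-dead lines dKO-8M and dKO-19M under SNX631 hold 1 dot between them.

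LDHA and ALDOC had the largest decreases of the pathway. LDHA, which makes lactate from pyruvate, stood at 1128, 1159 and 1079 CPM in FBS and at 377, 372 and 390 CPM in CSS. It fell by 1.56 ± 0.07 on the log2 scale, a 2.95-fold difference, with groups that did not overlap (FDR 6.61e-21, edgeR). ALDOC, which splits fructose bisphosphate, fell from 82.7, 84.9 and 75.2 CPM to 21.3, 23.4 and 24.8 CPM, a log2 change of -1.80 ± 0.13. Its more abundant relative ALDOA changed by -0.84 ± 0.05. The later steps of the pathway, from GAPDH to pyruvate kinase (PKM), moved within a narrow range: GAPDH changed by -0.81 ± 0.05, PGK1 by -0.92 ± 0.07, PGAM1 by -0.89 ± 0.05, ENO1 by -0.61 ± 0.06 and PKM by -0.79 ± 0.04. TPI1, which interconverts the triose phosphates, changed by -0.73 ± 0.05 and the isomerase GPI by -0.66 ± 0.05. The enzymes that commit glucose to the pathway changed least. HK2 (-0.42 ± 0.05), PFKL (-0.43 ± 0.04), PFKM (-0.18 ± 0.04) and HK1 (-0.15 ± 0.04) were lower at FDR under 0.05 with changes under 1.5-fold, and PFKP had a log2 change of -0.22 ± 0.10 (FDR 0.0754).

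The other HIF targets spread over a wider range than the enzymes in Rv1-WT. The paired kinase-phosphatases that set the level of fructose 2,6-bisphosphate, an activator of phosphofructokinase, were among the members that fell most. PFKFB3 stood at 66.2, 61.0 and 57.3 CPM in FBS and at 17.06, 17.97 and 17.98 CPM in CSS (-1.80 ± 0.12). PFKFB4 stood at 25.5, 24.0 and 24.3 CPM in FBS and at 6.39, 6.26 and 5.96 CPM in CSS (-1.99 ± 0.18). Neither pair of groups overlapped. The glucose transporter SLC2A1 was called lower with a smaller change (-0.62 ± 0.09).

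BNIP3, a receptor for the removal of mitochondria, went from 119, 118 and 115 CPM to 41.5, 43.9 and 44.0 CPM (-1.44 ± 0.14), whereas its relative BNIP3L changed by -0.43 ± 0.07. AK4, a mitochondrial adenylate kinase, changed by -0.62 ± 0.04. Other targets called lower were ANGPTL4, a secreted inhibitor of lipoprotein lipase, which fell by 1.47 ± 0.13 on the log2 scale, and the prolyl hydroxylase EGLN3, which fell by 1.32 ± 0.20. P4HA1, which hydroxylates collagen, changed by -0.60 ± 0.05, and ANKRD37 by -1.59 ± 0.24. PPFIA4 was called lower too (-2.78 ± 0.75), on levels of 2.12, 2.01 and 2.53 CPM in FBS and 0.611, 0.248 and 0.104 CPM in CSS. That call was lost in 3 of 6 fits that each left out a library.

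Other targets did not fall at FDR under 0.05. VEGFA, the growth factor of blood vessels, stood at 143, 135 and 130 CPM in FBS and at 203, 186 and 184 CPM in CSS, so that it rose by 0.49 ± 0.07 (FDR 5.74e-08, edgeR), and MXI1, a repressor that competes with MYC for its partner, rose by 0.26 ± 0.05. The values of ADM (0.03 ± 0.15), P4HA2 (-0.01 ± 0.12), EGLN1 (-0.04 ± 0.05) and PDK1 (-0.11 ± 0.08) gave no change at FDR under 0.05. KDM3A also did not pass that limit. HIF1A transcripts were at 191, 198 and 196 CPM in FBS and at 192, 197 and 187 CPM in CSS, with overlapping groups (-0.02 ± 0.04, FDR 0.71). Under SNX631 HIF1A was higher with CSS in Rv1-WT (0.20) and lower in Rv1-Luc (-0.27), both at FDR under 0.05. In Rv1-Luc under vehicle its change was -0.07 and did not pass that limit.

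**Figure D2:**
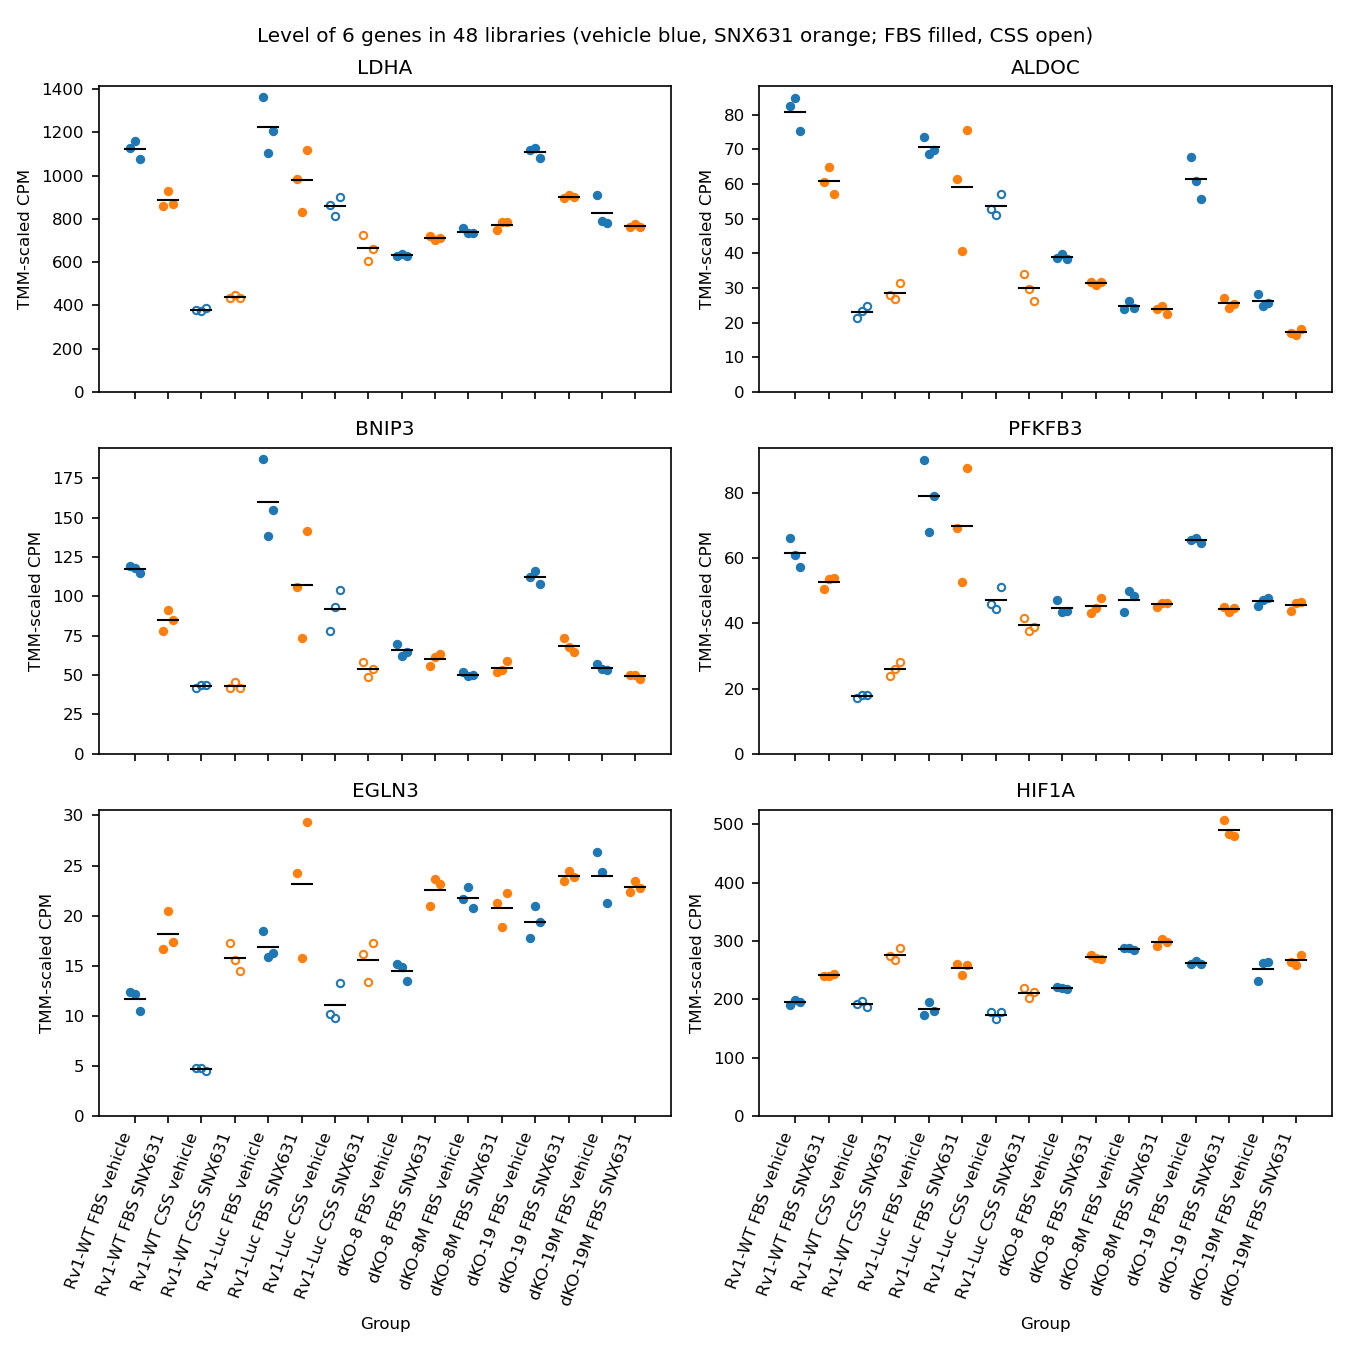
TMM-scaled CPM (vertical axes, from 0) of 6 members in each of the 48 libraries, by group, with vehicle in blue, SNX631 in orange, FBS filled and CSS open, and a bar at the mean of 3 libraries. The means of LDHA, BNIP3 and PFKFB3 are lowest in the 2 Rv1-WT CSS groups, that of EGLN3 in the Rv1-WT CSS vehicle group (4.67 CPM) and that of ALDOC in dKO-19M with SNX631 (17.2 CPM), and HIF1A is highest in dKO-19 with SNX631 (480 to 508 CPM).

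The same medium contrast in Rv1-WT under SNX631 uses other libraries. There 11 members were called lower (2.97% of all genes) and 1 higher (4.86% of all genes), the higher one being VEGFA (0.65 ± 0.07). The 11 were 5 enzymes (ALDOC, GAPDH, PGK1, PGAM1 and LDHA) and 6 other targets (ANGPTL4, ANKRD37, BNIP3, PFKFB3, PFKFB4 and PPFIA4). With each library left out in turn, the calls of ANKRD37 and PPFIA4 were each lost in 3 of 6 fits and that of GAPDH in 2 of 6, and the ANKRD37 value ran from -1.09 to -0.36. At FDR under 0.05, 14 enzymes and 12 other targets were lower (21.1% of all genes), and 0 and 2 were higher (19.5%). The medians were -0.50 for the enzymes and -0.38 for the other targets. LDHA stood at 860, 930 and 869 CPM in FBS and at 433, 447 and 435 CPM in CSS (-1.02 ± 0.07). EGLN3, which fell under vehicle, had a log2 change of -0.20 ± 0.15 here (FDR 0.306).

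In Rv1-Luc the enzymes changed less. Under vehicle 6 members were called lower with CSS (0.81% of all genes) and 0 higher (0.68%), and each was a HIF target outside the pathway proper: ANGPTL4 (-1.95 ± 0.10), PPFIA4 (-1.29 ± 0.29), BNIP3 (-0.81 ± 0.13), PFKFB3 (-0.74 ± 0.10), PFKFB4 (-0.66 ± 0.13) and EGLN3 (-0.62 ± 0.14). The calls of PPFIA4 and EGLN3 were each lost in 3 of 6 leave-one-out fits and that of PFKFB4 in 1, and all 3 were lost without replicate 1 in FBS. Of the enzymes, 0 were called by this rule, whereas 13 of 15 were lower at FDR under 0.05 (6.67% of all genes), as were 17 of the 19 other targets, and 0 of either were higher (7.33%). Without replicate 1 in FBS, 7 enzymes and 13 other targets were lower. The medians were -0.19 for the enzymes and -0.42 for the other targets. LDHA stood at 1365, 1105 and 1205 CPM in FBS and at 865, 812 and 902 CPM in CSS (-0.51 ± 0.07), and ANGPTL4 at 63.8, 42.6 and 50.5 CPM in FBS and at 13.1, 13.3 and 14.3 CPM in CSS. In both genes all CSS libraries lay below all FBS libraries. Under SNX631, 10 members were called lower in Rv1-Luc with CSS (0.92% of all genes) and 0 higher (0.595%): ALDOC (-0.98 ± 0.12), PGK1 (-0.60 ± 0.07), ADM, ANGPTL4, BNIP3, BNIP3L, PFKFB3, PFKFB4, SLC2A1 and PPFIA4. The PGK1 call was lost in 2 of 6 leave-one-out fits and the SLC2A1 call in 1. Again 13 enzymes and 17 other targets were lower at FDR under 0.05 (6.61% of all genes) and 0 of either higher (6.08%). With each comparison fitted on its own 6 libraries alone, the calls were 3 under vehicle and 2 under SNX631, and 7 other targets were lower at FDR under 0.05 under SNX631. VEGFA was lower with CSS in Rv1-Luc, by 0.19 ± 0.07 under vehicle and by 0.53 ± 0.07 under SNX631, both at FDR under 0.05.

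**Figure D3:**
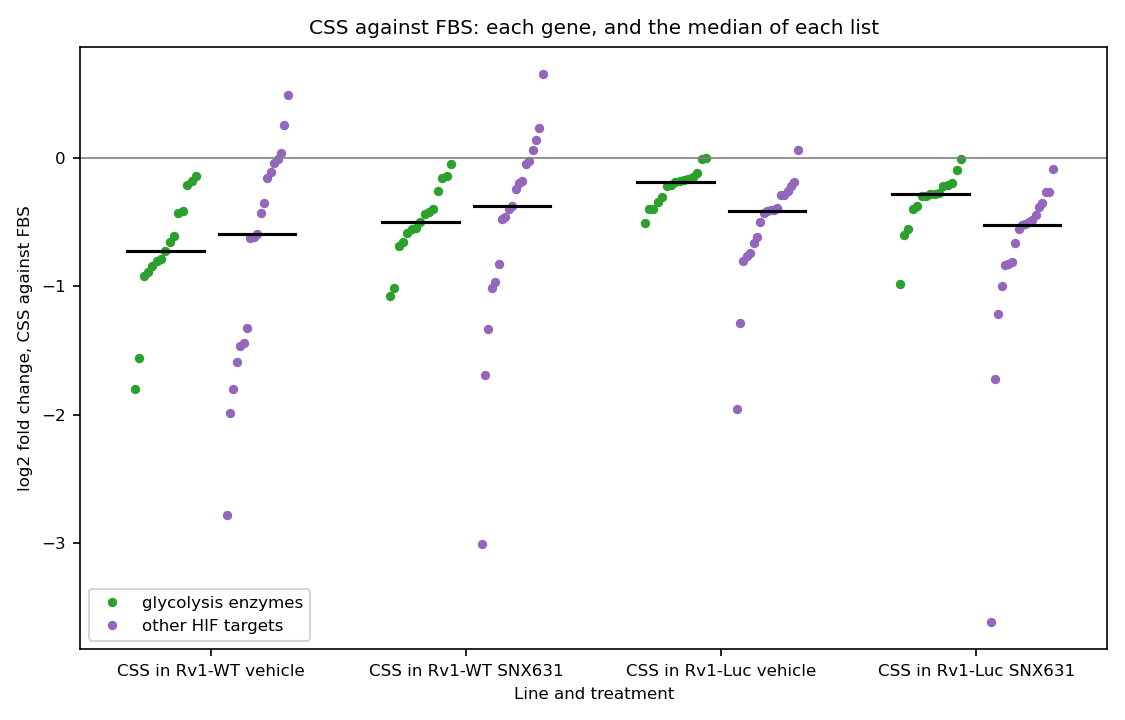
log2 fold change of CSS against FBS (vertical axis) for each glycolysis enzyme (green) and each other HIF target (purple), with a bar at the median of the list, in Rv1-WT and Rv1-Luc under vehicle or SNX631. The median of the enzymes lies below that of the other targets in Rv1-WT (-0.73 and -0.60 under vehicle) and above it in Rv1-Luc (-0.19 and -0.42).

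The 4 comparisons of CSS with FBS share no libraries. Of the 15 enzymes, 12 were lower at FDR under 0.05 in all 4, and of the 19 other targets 10, while 1.68% of all genes tested (336 of 20009) were. With each comparison fitted on its own 6 libraries, 7 of these enzymes and 3 of these targets (ANGPTL4, P4HA1 and AK4) were lower in all 4. Of the members, 0 were higher in all 4 (0.915% of all genes). The 12 enzymes were HK1, HK2, GPI, ALDOA, ALDOC, TPI1, GAPDH, PGK1, PGAM1, ENO1, PKM and LDHA, so that at every step of the pathway other than phosphofructokinase at least 1 enzyme was lower in all 4. The 10 other targets were ANGPTL4, BNIP3, BNIP3L, P4HA1, PFKFB3, PFKFB4, SLC2A1, AK4, FAM162A and PPFIA4. The enzymes have high counts, which makes small changes easier to detect than in most genes, and their share was not compared with genes of like level. Without replicate 1 of Rv1-Luc in FBS under vehicle, 7 of the 12 enzymes were lower in all 4: HK2, ALDOA, TPI1, PGK1, PGAM1, ENO1 and LDHA.

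Whether the medium acted differently in the lines was tested as the difference of their effects under vehicle. Of the 35 members, 8 had a CSS effect that was more positive in Rv1-Luc (4.61% of all genes were called in that direction) and 1 a more negative effect (4.04%). At FDR under 0.05 the effect was more positive for 13 of the 15 enzymes (18.7% of all genes) and more negative for 0 of them, with a median difference of 0.50. The other targets divided, with 7 more positive and 6 more negative (15.4% of all genes) and a median difference of 0.10. The enzymes called were ALDOC (1.40 ± 0.17), LDHA (1.05 ± 0.10), GAPDH (0.63 ± 0.07), ALDOA (0.63 ± 0.07) and PKM (0.62 ± 0.06). Among the other targets PFKFB4 (1.32 ± 0.23), PFKFB3 (1.06 ± 0.16) and BNIP3 (0.64 ± 0.19) differed in the same direction, and VEGFA (-0.68 ± 0.09) in the other. The BNIP3 call was lost in 10 of 12 fits that each left out a library, and the median difference of the other targets ran from 0.04 to 0.17. Without replicate 3 of Rv1-WT in FBS 3 other targets were more negative, and without replicate 3 of Rv1-WT in CSS 4 were more positive. Scaled by library size alone, 5 members were called.

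**Figure D4:**
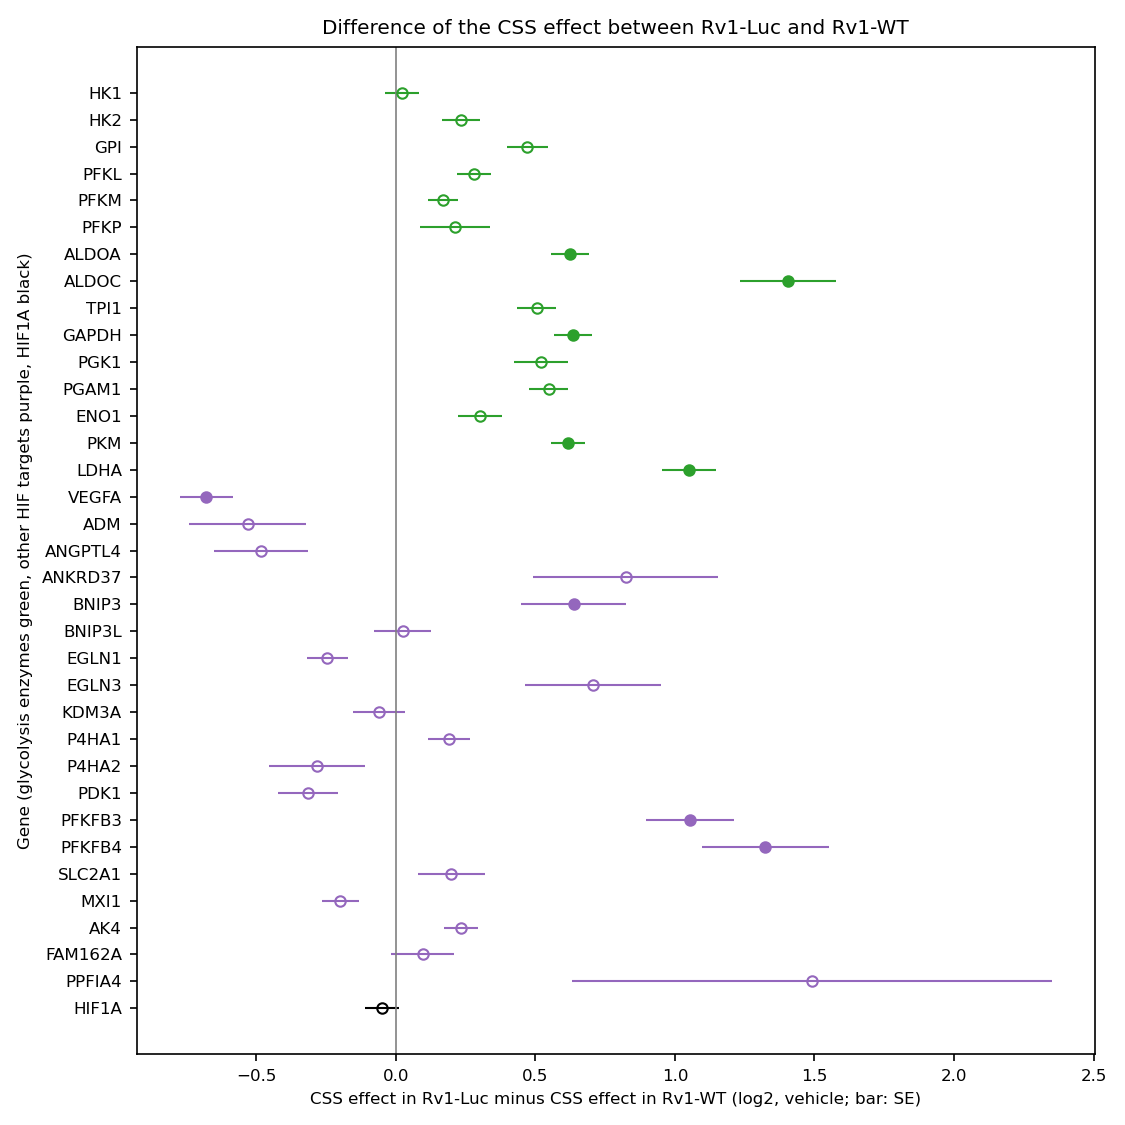
Difference of the CSS effect under vehicle, Rv1-Luc minus Rv1-WT (horizontal axis, log2, with its standard error), for each glycolysis enzyme (green), other HIF target (purple) and HIF1A (black), filled where the difference was called. All 15 enzymes lie above 0, ALDOC farthest at 1.40, and the other targets lie on both sides, from VEGFA at -0.68 to PPFIA4 at 1.49, which was not called.

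In FBS under vehicle the lines themselves differed in some members. Rv1-Luc was higher than Rv1-WT in 5 called members (8.63% of all genes) and lower in 0 (9.16%): PPFIA4 (2.52 ± 0.37), ANGPTL4 (1.28 ± 0.10), PFKP (0.83 ± 0.09), FAM162A (0.78 ± 0.08), a mitochondrial protein, and PFKFB4 (0.62 ± 0.13). This comparison uses the same FBS libraries as the CSS comparisons and is not independent of them. The share of members called, 5 of 35, is no larger than the 17.8% of all genes called in either direction. At FDR under 0.05, 6 enzymes and 9 other targets were higher (24.1% of all genes) and 3 and 5 lower (28.4%). ANGPTL4 stood at 22.8, 22.4 and 19.5 CPM in Rv1-WT and at 63.8, 42.6 and 50.5 CPM in Rv1-Luc, with no overlap. The PFKFB4 call was lost without replicate 1 of Rv1-Luc.

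SNX631 was used to ask what inhibition of CDK8 and CDK19 does, with the lines that re-express a dead kinase as a control for effects of the compound outside these kinases. It was run in 6 settings with an active kinase, each with its own vehicle libraries, and few members changed by over 1.5-fold. Among the 35 members, 1 was called higher in Rv1-WT in FBS (1.75% of all genes) and 0 lower (0.645%), 1 was called higher in Rv1-WT in CSS (2.97%) and 0 lower (1.25%), and 0 were called in Rv1-Luc in FBS (3.67% in either direction). In Rv1-Luc in CSS 0 were higher (2.45%) and 4 lower (1.61%), in dKO-8 1 was higher (0.655%) and 1 lower (1.05%), and in dKO-19 2 were higher (1.87%) and 5 lower (1.53%). In the lines with a dead kinase 1 member was called in dKO-8M (0.015% of all genes in either direction) and 0 in dKO-19M (0.09%). At an unadjusted p under 0.05, 19 of the 35 members passed in Rv1-Luc in FBS and 8 in dKO-19M, and DESeq2 called 0 and 1. Without each library in turn 1 or 2 members were called in Rv1-Luc in FBS. The effects in Rv1-Luc and Rv1-WT in FBS, and those in Rv1-Luc in CSS and in FBS, were compared directly, and edgeR called 0 members in either difference (0.175% and 0.08% of all genes). At an unadjusted p under 0.05, 4 and 12 members passed, and DESeq2 called 0 in both. Without replicate 2 of the Rv1-Luc SNX631 group in FBS, 3 members were called in the second.

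HIF1A was higher in each setting with an active kinase. SNX631 changed it on the log2 scale by 0.31 ± 0.04 in Rv1-WT cells in FBS, 0.53 ± 0.04 in Rv1-WT in CSS, 0.47 ± 0.04 in Rv1-Luc in FBS, 0.28 ± 0.04 in Rv1-Luc in CSS, 0.31 ± 0.04 in dKO-8 and 0.90 ± 0.04 in dKO-19, each at FDR under 0.05. Only the change in dKO-19 exceeded 1.5-fold. There HIF1A stood at 260, 265 and 260 CPM under vehicle and at 508, 483 and 480 CPM with SNX631, a 1.87-fold increase with no overlap (FDR 6.84e-26, edgeR). In dKO-19M it stood at 232, 263 and 263 CPM under vehicle and at 264, 259 and 277 CPM with SNX631, with overlapping groups (0.08 ± 0.04, FDR 0.374), and in dKO-8M the change was 0.05 ± 0.04 (FDR 0.742). The effect was larger in dKO-19 than in dKO-19M by 0.83 ± 0.06 (2.07% of all genes were called in this difference) and larger than in dKO-8 by 0.59 ± 0.06 (0.885% of all genes). It was also larger in dKO-8 than in dKO-8M, by 0.26 ± 0.06 at FDR 0.0022, though below the fold limit. In that difference edgeR called 0 members (0.905% of all genes), 11 passed an unadjusted p under 0.05 and DESeq2 called 2. Of all genes, 0.98% were higher at FDR under 0.05 in all 6 settings, and HIF1A was the only member among them. With library size scaling, with no filter on low counts, or without replicate 2 of the Rv1-Luc SNX631 group in FBS, 2 members were.

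Among the oxygen sensors EGLN3 rose and EGLN1 did not. EGLN3 was higher at FDR under 0.05 in 5 of the 6 settings and called in 3. In Rv1-WT in CSS it stood at 4.78, 4.77 and 4.46 CPM under vehicle and at 17.2, 15.5 and 14.5 CPM with SNX631, a 3.37-fold increase (1.75 ± 0.18, FDR 8.33e-10, edgeR). These levels overlapped with those of the FBS cultures with SNX631, at 16.7, 20.4 and 17.3 CPM. In Rv1-WT in FBS it rose by 0.63 ± 0.16 and in dKO-8 by 0.65 ± 0.13, with all 3 SNX631 libraries above all vehicle libraries in both. The call in Rv1-WT in FBS was lost in 5 of 6 fits that each left out a library. In Rv1-Luc in FBS the SNX631 libraries, at 24.3, 15.7 and 29.3 CPM, overlapped with the vehicle libraries at 18.4, 15.9 and 16.3 CPM (0.45 ± 0.13, FDR 0.00934). In dKO-19 the change was 0.31 ± 0.13 (FDR 0.088), and in dKO-8M and dKO-19M -0.07 ± 0.13 and -0.07 ± 0.12. The effect in Rv1-WT was larger in CSS than in FBS by 1.13 ± 0.25 (0.295% of all genes were called in this difference), a call that was lost in 9 of 12 leave-one-out fits, and PFKFB3 differed likewise by 0.79 ± 0.17, lost in 8 of 12. EGLN1 was lower at FDR under 0.05 in Rv1-Luc in CSS alone (-0.24 ± 0.05).

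P4HA1, the collagen prolyl hydroxylase subunit, was lower at FDR under 0.05 in all 6 settings with an active kinase, as were 0.95% of all genes. Its log2 change ran from -0.15 ± 0.06 in Rv1-WT in CSS to -0.41 ± 0.05 in dKO-19, under 1.5-fold in each. In dKO-19 it went from 155, 156 and 141 CPM to 115, 114 and 111 CPM with no overlap, and in dKO-8M and dKO-19M it changed by 0.02 ± 0.05 and -0.11 ± 0.05 (FDR 0.942 and 0.274). In fits of each pair of groups on its own libraries 0 members were lower in all 6, and the same was true in fits without replicate 1 of the Rv1-WT vehicle group in CSS, without replicate 1 or 2 of the Rv1-WT SNX631 group in CSS, or without replicate 2 of the Rv1-Luc SNX631 group in FBS. KDM3A, a histone demethylase, and MXI1 were lower in 5 of the 6 settings. MXI1 changed by -0.42 ± 0.05 in dKO-19 and by -0.01 ± 0.05 in dKO-19M, and the difference of these effects was -0.41 ± 0.07 (FDR 3.8e-06).

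**Figure D5:**
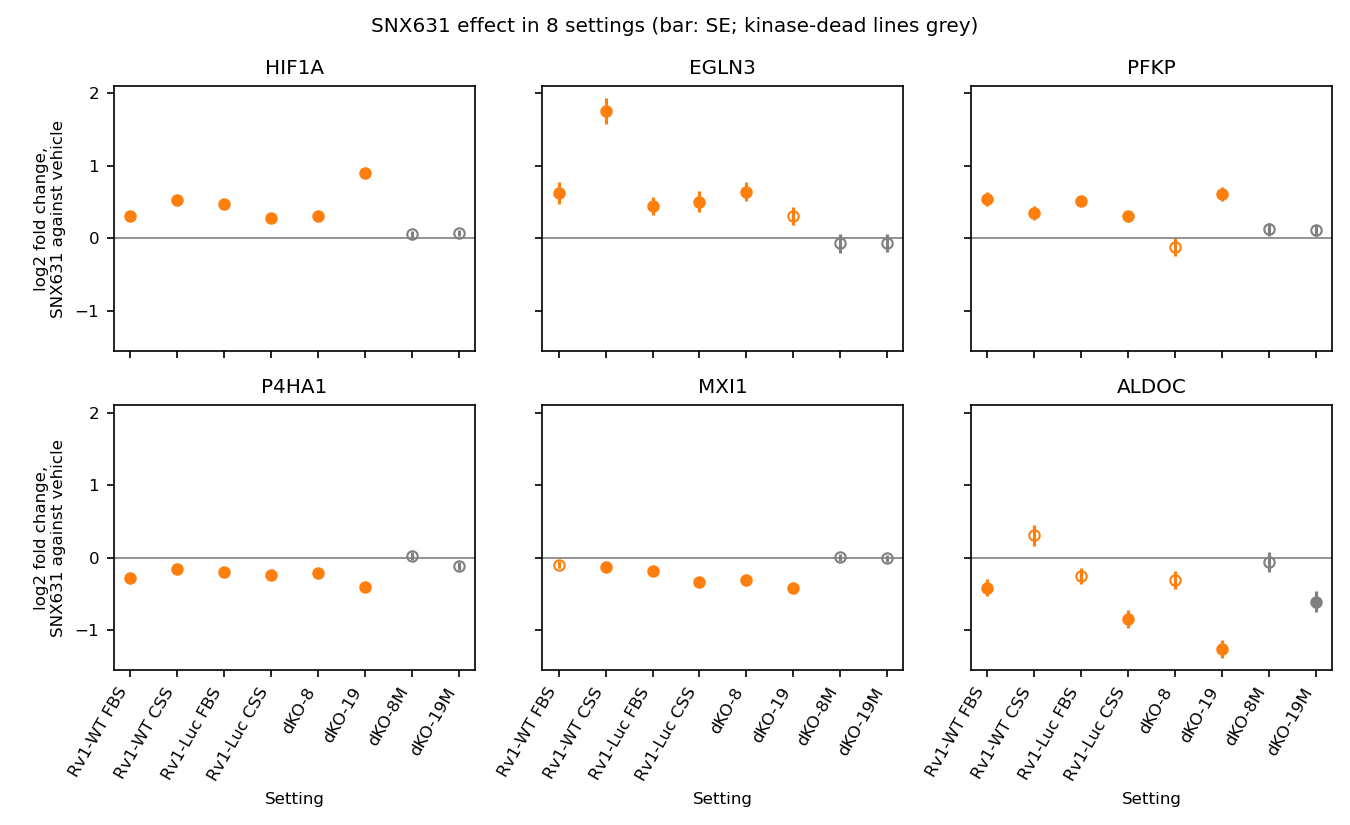
log2 fold change of SNX631 against vehicle (vertical axis, with its standard error) for 6 members in the 6 settings with an active kinase (orange) and in the kinase-dead lines (grey), filled where FDR was under 0.05. HIF1A lies above 0 and P4HA1 below 0 in each orange setting, HIF1A highest in dKO-19 at 0.90, and both are near 0 in dKO-8M and dKO-19M. ALDOC was lower at FDR under 0.05 in dKO-19M as well (-0.61), though not without replicate 1 of the vehicle group.

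VEGFA and ANGPTL4 were each lower with SNX631 in some settings, and ADM in no setting with an active kinase. VEGFA was lower at FDR under 0.05 in 4 of the 6 settings and called in dKO-19, where it went from 127, 131 and 125 CPM to 81.4, 83.9 and 82.2 CPM (-0.63 ± 0.07). That call was lost with library size scaling. ANGPTL4 was also lower in 4, called in dKO-19 (-0.80 ± 0.11) and in dKO-8, where it went from 11.4, 11.9 and 10.6 CPM to 6.93, 7.26 and 7.21 CPM (-0.66 ± 0.13). Neither gene overlapped between the groups in these settings. The change of ANGPTL4 in dKO-8M was 0.02 ± 0.12 and in dKO-19M 0.06 ± 0.11, and the effect in dKO-19 differed from that in dKO-19M by -0.86 ± 0.16. ADM, which encodes the vasodilator adrenomedullin, was the member called in dKO-8M. It went from 10.8, 10.4 and 10.2 CPM to 7.85, 5.65 and 5.99 CPM (-0.69 ± 0.11, FDR 0.000756), and it was lower in dKO-19M at FDR 0.00566 (-0.54 ± 0.12). In the settings with an active kinase ADM was higher at FDR under 0.05 in Rv1-Luc in FBS (0.56 ± 0.13) and lower in none. The dKO-8M call was lost in 3 of 6 leave-one-out fits. In dKO-19M, 0 other targets were lower at FDR under 0.05 without replicate 2 of the SNX631 group. The same held in a fit of dKO-19M on its own libraries.

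BNIP3 was lower in 4 of the 6 settings at FDR under 0.05. It was called in dKO-19, where it went from 112, 116 and 108 CPM to 73.8, 68.0 and 64.4 CPM (-0.71 ± 0.13), and in Rv1-Luc in CSS, where it went from 77.9, 93.3 and 104 CPM to 58.2, 48.8 and 53.9 CPM (-0.77 ± 0.14). PFKFB4 (-0.72 ± 0.15) and PPFIA4 (-2.60 ± 0.46) were also called lower in Rv1-Luc in CSS. PPFIA4 stood there at 4.33, 3.97 and 7.49 CPM under vehicle and at 1.23, 0.742 and 0.606 CPM with SNX631. In Rv1-Luc in FBS BNIP3 stood at 187, 138 and 155 CPM under vehicle and at 106, 73.9 and 142 CPM with SNX631, which overlap. Without replicate 2 of that SNX631 group, the median change of the other targets turned from -0.17 to 0.05, and the number lower at FDR under 0.05 from 7 to 3, while without replicate 3 it was 13.

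The direction of the glycolysis enzymes under SNX631 varied between settings. In Rv1-WT in CSS 10 of the 15 were higher at FDR under 0.05 and 0 lower (14.2% and 12.2% of all genes), with a median of 0.17 and the largest values in PFKP (0.35 ± 0.10) and TPI1 (0.25 ± 0.05). In Rv1-Luc in CSS 9 were lower and 1 higher (11.8% and 12% of all genes), with a median of -0.18. In dKO-19 11 were lower and 1 higher (11.3% and 9.31%), with a median of -0.23, while in dKO-8 1 was lower and 2 were higher (7.39% and 6.13%), with a median of 0.00. In each of the 6 leave-one-out fits of dKO-8, 0 enzymes were higher. Such fits gave 7 to 9 enzymes higher in Rv1-WT in CSS. They gave 6 to 9 lower in Rv1-Luc in CSS and 10 to 11 lower in dKO-19. The other targets had medians of 0.01 in Rv1-WT in CSS, -0.26 in Rv1-Luc in CSS, -0.21 in dKO-19 and -0.07 in dKO-8. At FDR under 0.05, 4 of them were higher and 4 lower in Rv1-WT in CSS, and 2 higher and 11 lower in Rv1-Luc in CSS. In dKO-19 0 were higher and 9 lower, and in dKO-8 1 was higher and 6 lower. The shares of all genes are those given above for each setting. In FBS 4 enzymes were lower and 1 higher in both Rv1-WT (6.79% and 7.68%) and Rv1-Luc (9.45% and 10.9%), with ALDOA, GAPDH and LDHA lower and PFKP higher in each. Whether the effect in CSS differed between Rv1-WT and Rv1-Luc was not tested. Other differences of effects were read at FDR under 0.05. In dKO-19 minus dKO-8, 8 enzymes were more negative and 1 more positive (4.77% of all genes in either direction, median -0.24). In dKO-19 minus dKO-19M, 5 were more negative and 1 more positive (9.87%, median -0.14). In Rv1-WT, CSS minus FBS, 0 were more negative and 5 more positive (3.13%, median 0.23), or 3 to 8 in leave-one-out fits. Of the enzymes, 0 passed with SNX631 in dKO-8M (0.21% of all genes higher and 0.275% lower) and 1, ALDOC, passed in dKO-19M (0.92% and 1.49%). The medians of the enzymes there were -0.01 and -0.08. ALDOC did not pass without replicate 1 of the dKO-19M vehicle group.

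Single enzymes moved further. ALDOC was called lower in dKO-19, where it went from 67.8, 61.0 and 55.7 CPM to 27.1, 24.2 and 25.4 CPM (-1.27 ± 0.13), and in Rv1-Luc in CSS, where it went from 52.8, 51.0 and 57.3 CPM to 33.9, 29.7 and 26.2 CPM (-0.84 ± 0.12). Neither pair of groups overlapped. The effects on ALDOC in dKO-19 and dKO-8 differed by -0.95 ± 0.18, and in dKO-19M ALDOC was lower too (-0.61 ± 0.14, FDR 0.0128). Without replicate 1 of the dKO-19M vehicle group, 0 enzymes were lower in dKO-19M at FDR under 0.05. HK2 fell in dKO-19 from 190, 192 and 186 CPM to 118, 118 and 116 CPM (-0.69 ± 0.05), and the difference from dKO-19M was -0.61 ± 0.07. The call of that difference was lost without replicate 1 of the dKO-19M vehicle group and with library size scaling. PFKP was higher at FDR under 0.05 in 5 of the 6 settings and called in dKO-19, from 7.77, 6.73 and 6.20 CPM to 11.9, 10.0 and 9.64 CPM (0.61 ± 0.09). In dKO-8 its change was -0.13 ± 0.12 (FDR 0.594), and the effects in dKO-19 and dKO-8 differed by 0.73 ± 0.16. The PFKP call in dKO-19 was lost in 2 of 6 leave-one-out fits.

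The lines with an active and a dead kinase were also compared under vehicle, on vehicle libraries that the SNX631 comparisons use too. Against dKO-19, 1 member was called higher in dKO-19M (3.72% of all genes), PFKP (1.09 ± 0.09), and 3 lower (3.87%), ALDOC (-1.23 ± 0.12), BNIP3 (-1.04 ± 0.13) and ANGPTL4 (-0.65 ± 0.10). At FDR under 0.05, 12 of the 15 enzymes were lower in dKO-19M (17.7% of all genes) and 1 higher (15.6%), with a median of -0.31. Of the 19 other targets 8 were lower and 1 higher, with a median of -0.18. BNIP3 stood at 57.0, 54.0 and 53.1 CPM in dKO-19M against 112, 116 and 108 CPM in dKO-19. HIF1A, higher with SNX631 in dKO-19, had a log2 value of -0.05 ± 0.04 in dKO-19M against dKO-19 (FDR 0.356). Against dKO-8, 3 members were called higher in dKO-8M (2.95% of all genes), PFKP (0.96 ± 0.11), ADM (0.61 ± 0.11) and EGLN3 (0.59 ± 0.13), and 2 lower (4.07%), VEGFA (-0.72 ± 0.07) and ALDOC (-0.65 ± 0.13). The ADM and EGLN3 calls were each lost in 2 of 6 leave-one-out fits, and that of ANGPTL4 in dKO-19M in 1 of 6. In dKO-8M 6 enzymes were higher at FDR under 0.05 (14.1% of all genes) and 3 lower (16.3%), with a median of 0.07, and HIF1A was higher by 0.39 ± 0.04. Of the other targets 4 were higher and 8 lower there, with a median of -0.09. In the vehicle group of dKO-19M replicate 1 stood apart: a chi-square of the counts over genes, per degree of freedom, was 17.7 and 17.1 against the other libraries and 1.45 between those. It was the highest library for 11 of the 15 enzymes. Without it the median of the enzymes was -0.38.

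Genes that surround these members were read from lists of HIF pathway regulators, further hypoxia targets, further glycolysis genes, enzymes of the tricarboxylic acid (TCA) cycle and genes of pyruvate entry into mitochondria. With CSS in Rv1-WT under vehicle, 10 of the 21 further hypoxia targets tested were called lower (4.78% of all genes) and 2 higher (6.09%), with a median of -0.49. The most changed were MIR210HG, the host transcript of a hypoxia-induced microRNA (-2.63 ± 0.43), the chemokine receptor CXCR4 (-2.51 ± 0.24) and the transcription factor BHLHE40 (-2.36 ± 0.35). Their mean levels were low, at 5.25, 4.51 and 7.62 CPM in FBS and at 0.85, 0.77 and 1.51 CPM in CSS. The genes named from these lists are those called with the greatest change in a comparison. Over all 4 CSS comparisons 9 of the 21 were lower at FDR under 0.05 in each (1.68% of all genes). Of the 17 TCA cycle enzymes, 2 were, with a median of -0.16 in Rv1-WT under vehicle. There 10 of the 17 were lower at FDR under 0.05 (23.1% of all genes) and 1 higher (21.8%). SDHA was called lower (-0.65 ± 0.04). In Rv1-Luc under vehicle 3 of the TCA cycle enzymes were lower (6.67%) and 0 higher (7.33%). SLC16A3, the lactate exporter, fell with CSS in Rv1-WT from a mean of 26.0 to 7.53 CPM (-1.78 ± 0.22) and in Rv1-Luc from 18.8 to 7.63 CPM (-1.32 ± 0.21).

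Among the genes of pyruvate entry PDK4, a kinase that inactivates pyruvate dehydrogenase, rose with SNX631 by 1.69 ± 0.07 in Rv1-WT in FBS, 1.59 ± 0.06 in Rv1-WT in CSS, 1.96 ± 0.07 in Rv1-Luc in FBS, 1.78 ± 0.06 in Rv1-Luc in CSS and 1.45 ± 0.07 in dKO-19. In dKO-8 its change was 0.24 ± 0.09 (FDR 0.0743), and in dKO-8M and dKO-19M 0.08 ± 0.08 and 0.02 ± 0.08 (FDR 0.832 and 0.964). With CSS in Rv1-WT under vehicle, 8 of the 11 genes of pyruvate entry were lower at FDR under 0.05 (23.1% of all genes) and 1 higher (21.8%). Their median was -0.27, and DLAT (-0.62 ± 0.04) and PDK3 (-0.61 ± 0.07) were called lower. Over all 4 CSS comparisons 4 of the 11 were lower in each (1.68% of all genes) and 1 higher (0.915%). Under vehicle PDK4 rose with CSS, by 1.65 ± 0.07 in the parental line and 0.67 ± 0.07 in Rv1-Luc. Its HIF-regulated relative PDK1, a member, was higher with SNX631 in Rv1-WT in CSS (0.37 ± 0.08) and lower in dKO-8 and dKO-19 (-0.38 ± 0.08 and -0.44 ± 0.08), each at FDR under 0.05. Among the further hypoxia targets DDIT4, which restrains mTOR signalling, fell with SNX631 in dKO-19 (-1.505 ± 0.10) and dKO-8 (-1.17 ± 0.10), and also in dKO-19M (-0.68 ± 0.10). CA12, a carbonic anhydrase, rose in Rv1-WT (0.64 ± 0.08 in FBS) and Rv1-Luc (0.85 ± 0.08 in FBS). NDRG1 was called lower in dKO-19 (-1.34 ± 0.15) and Rv1-Luc in CSS (-1.255 ± 0.16), and higher in Rv1-WT in CSS (0.66 ± 0.17). BHLHE40 (-1.79 ± 0.32) and MIR210HG (-1.66 ± 0.32) were also called lower in Rv1-Luc in CSS. There 4 of the 21 were called lower (1.61% of all genes) and 1 higher (2.45%). In Rv1-WT in CSS 0 were lower (1.25%) and 2 higher (2.97%), and in dKO-19 3 were lower (1.53%) and 0 higher (1.87%). Among the HIF pathway regulators CREBBP, a coactivator of HIFs, was called higher with CSS in Rv1-WT (0.89 ± 0.07 under vehicle). Against the parental line, Rv1-Luc was lower in EPAS1, the other main alpha subunit, and in ARNT2, a partner (-1.72 ± 0.20 and -2.21 ± 0.17). Both levels were low, with EPAS1 at a mean of 1.53 CPM in Rv1-Luc and 5.03 CPM in Rv1-WT, and ARNT2 at 1.84 and 8.53 CPM.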

How the data were processed

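The authors sequenced RNA of 48 libraries, 16 groups of 3, with a directional kit and deposited a table of expected counts per gene, of which 81.6% are whole; how the fractions arose is not given in the sources used here. The submitters' processing notes name FastQC, cutadapt 2.8, STAR 2.7.2b, featureCounts of Subread 2.0.3 and the builds GRCh38.p13 and GRCm39; the strand setting of the counting is not given in the sources used here. The table holds 61815 genes and 2 transgenes, which were kept out of the tests. Counts were rounded to whole numbers, filtered with filterByExpr (minimum count 10, minimum total 15), scaled with TMM (factors 0.911 to 1.07) and fitted in 1 quasi-likelihood model of edgeR 4.0.16 (limma 3.58.1, R 4.3.3) with 32 residual degrees of freedom; p-values were adjusted by Benjamini-Hochberg over 20009 genes. There were 15 comparisons of groups and 7 differences of effects. CPM are TMM-scaled, and RPKM used GENCODE 29 exon lengths. The biological coefficient of variation was 4.2%. Library totals of 13231860 to 31496134 counts limit precision for members near 1 CPM, such as PPFIA4.

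Members and gene lists were chosen with earlier results of these data known. Members called in a comparison are named, and of each further list at most the 3 called genes with the largest change per comparison. The scripts were tested on simulated data. Alternatives were RLE size factors, library size scaling, no filter, a replicate block, DESeq2 1.42.0, own libraries only and leaving out each library. The replicate numbers are not said to mark a shared culture or day. The correlation of deviations of same-numbered libraries was over 0.1 in all 3 pairs only for SNX631 in dKO-19M (0.401, 0.22 and 0.16).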

Additional observations from a re-analysis of the deposited data

Results flagged for a closer look

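Each of these members had an effect that differed between settings by the test of the difference itself (edgeR, FDR under 0.01 and over 1.5-fold), and each value is a difference of log2 changes. The CSS effect in Rv1-Luc minus that in Rv1-WT was 0.63 for ALDOA, 1.40 for ALDOC, 0.64 for BNIP3, 0.63 for GAPDH, 1.05 for LDHA, 1.06 for PFKFB3, 1.32 for PFKFB4, 0.62 for PKM and -0.68 for VEGFA. Of these, the BNIP3 call was lost in 10 of 12 leave-one-out fits and those of ALDOA and PKM in 1 of 12 each. Library size scaling lost the calls of BNIP3, ALDOA, GAPDH and PKM. The SNX631 effect in dKO-19 minus that in dKO-19M was -0.86 for ANGPTL4, 0.83 for HIF1A and -0.61 for HK2. The HK2 call was lost in 1 of 12 leave-one-out fits and with library size scaling. The SNX631 effect in dKO-19 minus that in dKO-8 was -0.95 for ALDOC, 0.59 for HIF1A and 0.73 for PFKP. The call for HIF1A in that difference was lost in 4 of 12 leave-one-out fits. In Rv1-WT the SNX631 effect in CSS minus that in FBS was 1.13 for EGLN3 and 0.79 for PFKFB3. Those calls were lost in 9 of 12 and 8 of 12 leave-one-out fits. Single libraries were not tested as outliers within the groups of 3.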

How the results depend on the processing

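Of 95 calls of a member in a comparison, 78 between groups and 17 in a difference of effects, 69 held without each library in turn and 59 in every setting run, and 0 changed direction. Library size scaling shifted the median of all genes by at most 0.0603 on the log2 scale. It gave 1 call for SNX631 in Rv1-Luc in FBS and for the difference of dKO-8 and dKO-8M, 5 for the difference of CSS effects, and 2 members higher in all 6 kinase-active settings. Its medians were -0.18 for the enzymes and -0.16 for the other targets under SNX631 in dKO-19, -0.67 and -0.54 with CSS in Rv1-WT under vehicle, -0.47 for the enzymes with CSS in Rv1-WT under SNX631, and -0.14 for the other targets in dKO-19M against dKO-19. RLE factors gave 1 call for SNX631 in Rv1-Luc in FBS. Without a filter there was 1 call for SNX631 in dKO-19M, 2 for the difference of dKO-8 and dKO-8M, 2 for that of Rv1-Luc in CSS and FBS, 2 members higher in all 6 settings, and a median of -0.083 for the enzymes under SNX631 in Rv1-WT in FBS. DESeq2 gave 1 call for SNX631 in dKO-19M and 2 for the difference of dKO-8 and dKO-8M. Own libraries only gave 3 and 2 calls with CSS in Rv1-Luc under vehicle and SNX631, 2 for the difference of dKO-8 and dKO-8M, 7 enzymes and 3 other targets lower in all 4 CSS comparisons, and 0 members lower in all 6 SNX631 settings. The cause of these shifts was not tested.

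The replicate block kept all 95 calls and gave 1 call for SNX631 in Rv1-Luc in FBS and 1 for the difference of dKO-8 and dKO-8M.

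With each library left out, calls ranged over 0 to 1 for SNX631 in Rv1-WT in FBS, 1 to 2 in Rv1-WT in CSS, 1 to 2 in Rv1-Luc in FBS, 0 to 1 in dKO-8M, 0 to 1 in dKO-19M, 0 to 2 for the difference of Rv1-WT in CSS and FBS and 0 to 3 for that of Rv1-Luc. CSS in Rv1-Luc under SNX631 gave 8 calls without replicate 3 and 15 without replicate 2 of the SNX631 group in FBS. Medians under SNX631 ranged from -0.098 to -0.062 for the enzymes in Rv1-WT in FBS, from -0.22 to 0.047 for the other targets in Rv1-Luc in FBS, from -0.27 to -0.20 for the other targets in dKO-19, from -0.016 to 0.0055 for the enzymes and -0.036 to -0.0033 for the other targets in dKO-8M, and from -0.12 to -0.023 for the enzymes in dKO-19M. The enzymes ranged from -0.51 to -0.48 with CSS in Rv1-WT under SNX631, from 0.064 to 0.091 in dKO-8M against dKO-8 and from -0.38 to -0.30 in dKO-19M against dKO-19, where the other targets ranged from -0.27 to -0.17. The enzymes lower in all 4 CSS comparisons ranged from 7 to 12, members higher in all 6 SNX631 settings from 1 to 2 and members lower in all 6 from 0 to 2.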
